A study of Arabidopsis thaliana with 16 samples.

Results

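In sorted guard cells of wild type Arabidopsis thaliana seedlings, the peaks of 2 histone modifications, H3K27me3 and H3K4me3, were set against each other gene by gene. Each of the 27444 protein-coding genes on chromosomes 1 to 5 was called H3K27me3 only, H3K4me3 only, both or neither. A mark was called where its peaks covered at least 150 bp of the gene body, that is, the span of the gene from end to end. By this rule 5347 genes were H3K27me3 only, 15719 were H3K4me3 only, 1363 were both and 5015 were neither. The seedlings were Wild Type (WT), aged 12 dpg (days post germination), and kept at 22 °C under a day of 16 h light and 8 h dark. Their aerial tissue was made into protoplasts, from which guard cells were sorted by fluorescence (FACS). The labels name neither a line nor the fluorescent marker used for sorting WT cells. The second genotype of the series, the fama-1 mutant carrying FAMAp:FAMA-LGK (FAMA-LGK below), was used only to see how each WT gene was classed there. In it the FAMA promoter drives an altered form of FAMA, a bHLH transcription factor needed for guard cell differentiation. Each mark in each genotype had 2 ChIP and 2 input libraries, and each WT mark is represented by 1 deposited peak list for these libraries together. No value per replicate, no replicate error and no test between the lists is therefore given, and every value below is a single measurement.

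H3K27me3 is placed by Polycomb repressive complexes and in plants lies over whole genes that are kept silent, among them developmental regulators of other organs and stages. H3K4me3 is placed by Trithorax-type methyltransferases and is found near the starts of transcribed genes. Genes that carry both marks are called bivalent when both lie on the same nucleosomes, which peaks from a pool of cells do not show. In such a pool, a gene with both marks in each cell and a gene with 1 mark in some cells and the other mark in the rest cannot be told apart.

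The WT H3K27me3 list held 7386 peaks over 17.2 Mb, with a median width of 1554 bp. The WT H3K4me3 list held 16036 peaks over 19.9 Mb, with a median width of 1115 bp. The median fold, the authors' enrichment of ChIP over control at a peak, was 2.90 for H3K27me3 and 5.04 for H3K4me3. The number of reads behind either list is unknown, and a gene without a listed peak may carry the mark below the threshold that was applied. Exact (Clopper-Pearson) 95% intervals of shares, in brackets, cover counting error only, and neighbouring genes are not independent.

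The marks mostly lay on different genes. H3K27me3 was called on 24.4% of all genes and H3K4me3 on 62.2%. Of the 6710 genes with H3K27me3, 20.3% (19.4 to 21.3) also had H3K4me3, against 75.8% (75.2 to 76.4) of the genes without H3K27me3. Read the other way, 7.98% (7.58 to 8.40) of the H3K4me3 genes had H3K27me3, against 51.6% (50.6 to 52.6) of the genes without H3K4me3. By class, 19.5% of all genes were H3K27me3 only, 57.3% were H3K4me3 only, 4.97% were both and 18.3% were neither. These 4 percentages are the background for every list of genes below. The share of genes in the class both ranged from 4.69% on chromosome 4 to 5.38% on chromosome 1.

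The marks also lay mostly on different bases. The 2 lists had 0.882 Mb in common, which is 5.13% of the H3K27me3 bases and 4.43% of the H3K4me3 bases. Within protein-coding gene bodies, H3K4me3 covered 8.75% of the bases with H3K27me3 and 31.4% of the bases without it. In all, 54.4% of the H3K27me3 bases, against 91.0% of the H3K4me3 bases, lay in protein-coding gene bodies. At least 1 base of H3K4me3 overlapped 1315 of the 7386 H3K27me3 regions, or 17.8%. The overlapped H3K27me3 regions had a median width of 1393 bp and the others one of 1585 bp. H3K4me3 regions overlapped by H3K27me3 had a median width of 875.5 bp, against 1125 bp for the rest. H3K27me3 regions without overlap lay a median of 2212 bp from the nearest H3K4me3 region, and 15.4% of them lay within 500 bp of one.

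The marks covered genes in different shapes. In the class H3K27me3 only, the mark covered a median of 1228 bp and 99.0% of the gene body, and 62.0% of the genes were covered over at least 90% of their length. In the class H3K4me3 only, the median was 1005 bp, which was 42.3% of the body, and 9.83% of the genes were covered to 90%. The H3K4me3-only genes were also longer, with a median of 2490 bp against 1578 bp, and a share of the body depends on gene length. In these 2 classes H3K27me3 mostly spanned the gene, while H3K4me3 mostly occupied a stretch of it. Strand is not in the gene table, so where in the gene that stretch lies relative to the start of transcription is not reported. In the class both, H3K27me3 covered a median of 1055 bp (64.9% of the body) and H3K4me3 a median of 795 bp (44.2%), and 24.4% of these genes had H3K27me3 over at least 90% of their length. A single H3K27me3 region covered at least 150 bp of 2 or more genes in 13.5% of cases, and a region of 21604 bp at chr1:8353026-8374629 (TAIR10) covered that much of 10 genes.

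Gene length differed between the classes, with medians of 1578 bp for H3K27me3 only, 2490 bp for H3K4me3 only, 1968 bp for both and 1205 bp for neither. From the shortest to the longest of 5 length groups of equal number, the share of H3K27me3 only went from 30.6% to 9.71% of genes and that of H3K4me3 only from 21.8% to 79.1%. The class both had its highest share, 6.29%, in genes of 1147 to 1789 bp and its lowest, 4.04%, in the shortest group. In all 5 length groups the H3K27me3 genes had H3K4me3 less often than the other genes did. The values were 11.7% against 33.4% in the shortest group and 30.5% against 91.9% in the longest.

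**Figure D1:**
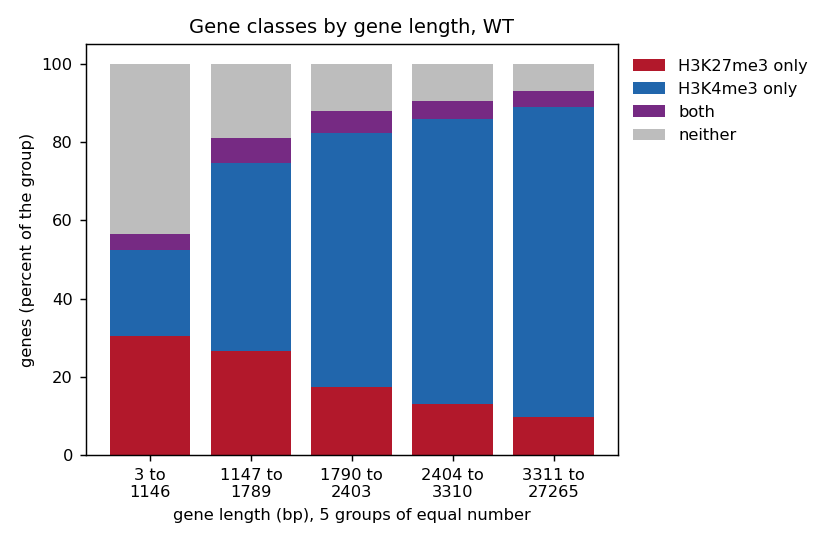
Each bar holds 1 of 5 groups of protein-coding genes of equal number, ordered by gene length in bp, and shows the percent of its genes in each WT class. The class neither shrinks from 43.6% to 6.94% and H3K4me3 only grows from 21.8% to 79.1% as genes get longer, while the class both stays between 4.04% and 6.29%.

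Regulators of meristems, flowers and embryos were the most uniform H3K27me3 list. All 31 genes carried the mark, 26 of them without H3K4me3 and 5 with both. SHOOT MERISTEMLESS (STM), the homeobox gene that maintains the shoot meristem, was covered over its whole 3482 bp by an H3K27me3 peak of fold 6.48 at chr1:23057971-23071963. Its relative KNAT2 was covered over all 6394 bp, and WUS, which maintains the stem cell niche, over all 1941 bp. The floral identity gene LFY was covered over all 2742 bp and the carpel and stamen gene AG over all 5684 bp. ABI3, a regulator of seed maturation, had its 3816 bp under a peak of fold 7.54, at the 99.9th percentile of the H3K27me3 list by −log10 q. The share of the body covered had a median of 100% in this list and 93.9% over all H3K27me3 genes. It was lowest on LEC2, at 42.1%. Covered lengths were long as well. The list's median was 2742 bp of H3K27me3 in genes of a median 2873 bp, against 1189 bp in genes of a median 1669 bp over all H3K27me3 genes.

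Root and vascular regulators and seed proteins followed the same class. Of 15 root and vascular identity genes, 12 were H3K27me3 only, 2 were H3K4me3 only and 1 was neither. SHR, a GRAS regulator of root radial patterning, was covered over all 2173 bp by a peak of fold 7.76. Its partner SCR had no H3K27me3 and 2232 bp of H3K4me3. PLT1 and PLT2, which specify the root stem cell niche, carried 3250 and 3431 bp of H3K27me3 and no H3K4me3. The Casparian strip gene CASP1 and its regulator MYB36 were both covered from end to end. CESA7 had the fewest bases covered, 268 of its 4871 bp, by a peak at the 93.4th percentile, while CESA4, which acts with it in secondary wall cellulose synthesis, was H3K4me3 only. All 13 genes of seed storage and late embryo proteins carried H3K27me3, 10 of them alone and 3 with H3K4me3. SESA1, SESA2, SESA3 and SESA4, neighbouring genes for albumin storage proteins, lay entirely under a single H3K27me3 peak of fold 7.72, so they count as 1 observation.

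Housekeeping and photosynthesis genes stood at the other end. All 15 housekeeping genes were H3K4me3 only, with 775 bp (TIP41) to 2330 bp (GAPC1) covered. Of 22 photosynthesis genes, 20 were H3K4me3 only, and where the mark was present its median was 1419 bp, or 93.9% of the gene body. The 2 others were LHCB1.2, with neither mark, and RBCS2B, with both. Both belong to sets of near-identical neighbouring copies: LHCB1.1 and LHCB1.3 were covered over their whole 1314 and 1230 bp while LHCB1.2 beside them had no peak. The treatment of reads that match several copies is not given in the sources used here, so the calls of single LHCB1 and RBCS genes are uncertain. Of 18 cell cycle genes, 15 were H3K4me3 only, 3 were neither (CYCB1;1, CYCD4;1 and MCM3) and 0 carried H3K27me3. The H3K4me3-only share of the cell cycle list, 83.3% at a median length of 2594.5 bp, was not far from 72.7% of all genes of 2404 to 3310 bp. Of all genes of that length, 13.1% were H3K27me3 only and 4.52% were both. Percentiles of H3K4me3 on the 15 cell cycle genes with the mark ran from 4.5 (MCM2) to 90.2 (E2FB, a transcription factor of cell cycle entry). The peaks of CDKB1;1, CDKB1;2, MCM2, MCM5 and MCM7 lay between the 4.5th and the 9.7th percentile of the list, and those of PCNA1, a replication factor, and CDKA;1 lay at the 70.4th and 52.9th. Among cell cycle inhibitors, the peaks of KRP1, SIM, KRP2 and RBR1 lay at percentiles 20.3, 22.1, 48.0 and 74.8.

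**Figure D2:**
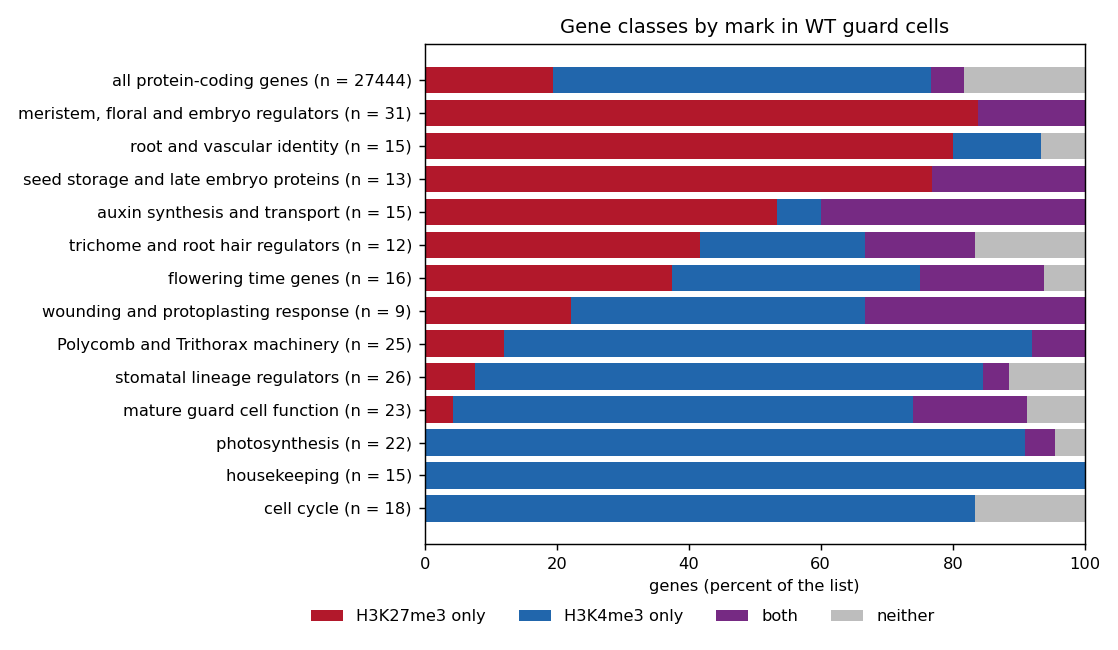
Bars show the percent of each gene list's members in each WT class, with all 27444 protein-coding genes at the top and the number of genes in brackets. H3K27me3 only takes 26 of 31 meristem, floral and embryo regulators and 0 of 15 housekeeping genes, and the class both is widest in the auxin list, with 6 of 15 genes.

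Of 23 genes of mature guard cell function, the sorted cell type, 20 carried H3K4me3, 16 of them alone. So did 21 of 22 photosynthesis genes, which mesophyll and guard cells share, so H3K4me3 does not by itself identify the cells. The median length of all 23 guard cell genes was 3859 bp. Of them 69.6% were H3K4me3 only, against 79.1% of all genes of 3311 to 27265 bp. H3K4me3 was long on the guard cell genes. Its median over the 20 marked genes was 1990.5 bp, or 77.1% of the body, against 996 bp and 42.4% over all H3K4me3 genes. Of these 20 genes, 13 were above 1619 bp, the 90th percentile of covered length, which 9.97% of all H3K4me3 genes passed. The median gene length was 3878 bp over the 20 marked genes and 2452 bp over all H3K4me3 genes. The counts above 1619 bp were 4 of 7 for wounding and protoplasting response genes, 2 of 2 for root and vascular genes, 7 of 21 for stomatal lineage regulators, 6 of 21 for photosynthesis and 3 of 15 for housekeeping genes.

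Within the guard cell list, H3K4me3 was longest on a transporter and a light receptor. ABCG40, an importer of abscisic acid, had 6072 of its 6469 bp covered, and PHOT2, a blue light receptor, 5330 of 9287 bp. Their strongest H3K4me3 peaks had folds of 3.94 and 6.94, at percentiles 25.1 and 87.4 of the list, so long coverage did not always go with a strong peak. ABCG40 and PHOT2 were also the 2 H3K4me3-only genes with the most covered bases among all genes with a symbol. The next in that ranking were outside the list: PEN3, an ABC transporter of pathogen defence, with 5247 bp, the transporter gene ABCB4 with 5213 bp, and CHX20, a cation exchanger known from guard cells, with 4123 bp. UGT73B5, the heat shock gene HSP101 and LACS1 completed the first 8 with 3901, 3848 and 3701 bp. In the guard cell list, the inward potassium channels KAT1 and KAT2 had 3154 and 2825 bp, and the anion channel SLAC1 had 1942 of 2033 bp. OST1 and HT1, kinases of stomatal closing and of the carbon dioxide response, had 2163 and 2039 bp. GC1, whose promoter is used as a guard cell marker, and the transcription factors SCAP1 and MYB60 were covered from end to end (1043, 1488 and 1414 bp).

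A few guard cell genes did not follow. TGG1 and TGG2 encode myrosinases and lie close to each other in the genome, yet TGG1 was H3K4me3 only over its whole 2933 bp and TGG2 was H3K27me3 only over its whole 3070 bp. The root and guard cell potassium channel AKT1 and the transcription factor MYB61 carried neither mark. ALMT12, PHOT1, RBOHD and RBOHF carried both and are described with that class.

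Stomatal lineage regulators were mostly H3K4me3 only in these differentiated cells, at 20 of 26 genes. This share of 76.9%, at a median length of 2825 bp, was near the 72.7% of all genes of 2404 to 3310 bp. ICE1 had 2412 of its 2613 bp covered at fold 6.97, and its relative SCRM2, which acts with it as a bHLH partner through the lineage, had 1854 bp. The receptor-like protein TMM was covered over all 1831 bp. FAMA had 2386 of 3094 bp covered by a peak at chr3:8715826-8719153, but with a fold of 1.53, at the 13.5th percentile of the H3K4me3 list. The remaining genes of the list differed from each other. SPCH, which starts the lineage, carried both marks, MUTE, which ends the divisions of the meristemoid, was H3K27me3 only over 1313 of 1818 bp, and EPF2, EPFL9 (STOMAGEN) and BASL carried neither. The peptide gene EPFL6 was H3K27me3 only over all 2481 bp.

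The genes of the Polycomb and Trithorax list were themselves mostly H3K4me3 only, at 20 of 25. These genes are long, with a median of 4470 bp. Their share of 80% was near the 79.1% of all genes of 3311 to 27265 bp. These 20 included the H3K27 methyltransferase genes CLF and SWN with 1227 and 858 bp, and the H3K4 methyltransferase genes ATX1, ATX2 and SDG2 with 1105, 1258 and 1493 bp. MEA and FIS2, subunits of the seed Polycomb complex, and VIN3, which is induced by cold, were H3K27me3 only. EMF1 and ULT1 carried both. Among H3K27me3-only genes with a symbol, the most bases covered were on GSL09, a glucan synthase-like gene, with 10134 of 16053 bp. PKR2, a relative of the chromatin remodeller PICKLE, came next with 7065 of 7329 bp. KNAT2, MEE57, PEN1 and GA1, an enzyme of early gibberellin synthesis, had 6394, 6210, 6161 and 6145 bp.

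Flowering time genes split evenly, with 6 H3K27me3 only, 6 H3K4me3 only, 3 both and 1 neither. FT and TSF, which encode the mobile flowering signal and its relative, carried 2435 and 2234 bp of H3K27me3 and no H3K4me3. CO, which activates FT, had 1979 bp of H3K4me3 and no H3K27me3. The relatives of the floral repressor FLC fell into 3 classes: MAF1, MAF2 and MAF3 were H3K4me3 only with 1020 to 1154 bp, MAF5 was H3K27me3 only with 3065 bp, and FLC and MAF4 carried both.

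The 1363 genes with both marks were next examined for how the marks lay on them. In 1159 genes (85.0%) at least 150 bp were covered by both marks at once, and 182 genes (13.4%) had no base in common. H3K4me3 lay entirely inside H3K27me3 within the body in 468 genes (34.3%), the marks overlapped in part in 412 (30.2%), and H3K27me3 lay entirely inside H3K4me3 in 287 (21.1%). The remaining 14 genes had the same bases under both. The median common stretch over the class was 577 bp. The summits of the strongest peak of each mark were a median of 405 bp apart.

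H3K4me3 was weak on most of these genes. The strongest H3K4me3 peak on a gene had a median fold of 2.91 in the class both and 5.34 in the class H3K4me3 only. By −log10 q it lay at a median percentile of 14.2 of its list in the class both and of 58.7 in H3K4me3 only, and it fell into the lowest 25% of the list for 67.9% of the genes with both marks and 16.0% of those with H3K4me3 only. For H3K27me3 the classes were nearer to each other. Its median fold was 3.15 in the class both and 3.82 in H3K27me3 only, with median percentiles of 56.2 and 69.4. Both peaks were in the upper 25% of their lists for 32 genes (2.35%). When only the 50% of peaks highest in −log10 q in each list were kept, the class both numbered 109 genes, and 2.43% of H3K27me3 genes had H3K4me3 against 40.5% of the others. The size of the class both thus depends on the weaker peaks, while H3K4me3 was less frequent on H3K27me3 genes than on the others with and without them. A weak peak from a mark in few cells and one from little of the mark in all cells cannot be told apart.

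**Figure D3:**
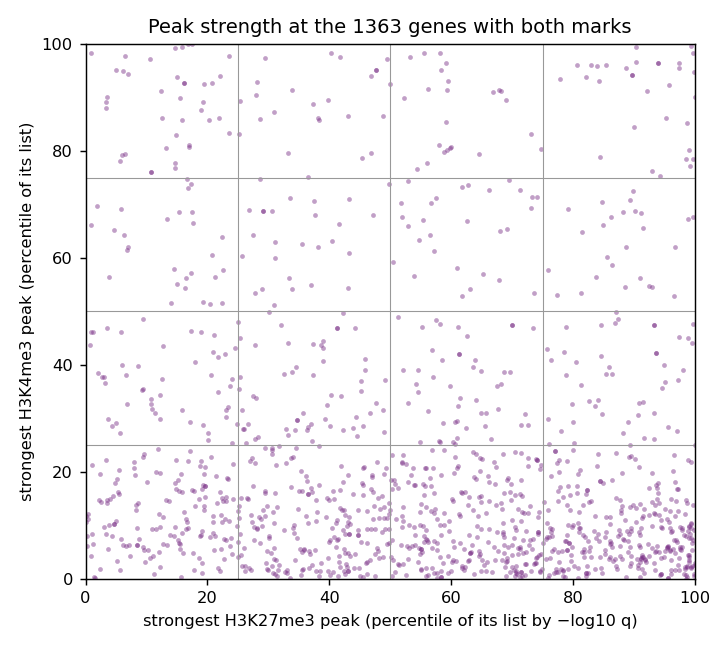
Each point is 1 of the 1363 WT genes with both marks, placed by the percentile of its strongest H3K27me3 peak (x axis) and of its strongest H3K4me3 peak (y axis) within that mark's list by −log10 q, with lines at 25, 50 and 75. Points crowd along the bottom, where 67.9% of genes lie below 25 for H3K4me3, and spread over the whole range for H3K27me3.

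Arrangement and strength went together. Where H3K4me3 lay inside H3K27me3, the median percentiles were 77.6 for H3K27me3 and 5.83 for H3K4me3. Where H3K27me3 lay inside H3K4me3, they were 28.0 and 36.4. A mark inside the other by construction covers fewer bases of the gene body, whatever the full width of its peak, so these values are a description only.

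The floral repressor FLC shows the first arrangement. H3K27me3 covered all 6067 bp of it, under a peak at chr5:3173372-3181440 of fold 6.44, at the 97.9th percentile. H3K4me3 covered 553 bp at 1 end of the gene, at chr5:3178896-3179455, with a fold of 2.33 at percentile 9.03. The flowering integrator SOC1 had 3446 of 3621 bp of H3K27me3 and 1249 bp of H3K4me3, with 1116 bp in common. Organ boundary and floral genes had the same form, with little H3K4me3. CUC2 had 2151 bp of H3K27me3 and 668 of H3K4me3, FUL 3749 and 575, SEP4 2376 and 472. In the embryo regulator LEC2, 1266 bp of H3K27me3 and 1096 bp of H3K4me3 had 486 bp in common. The shoot meristem gene KNAT6 had 3118 bp of H3K27me3 and 1336 bp of H3K4me3, the latter in separate stretches, with 717 bp in common.

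Auxin genes had the highest share of both marks among the 13 lists, at 6 of 15, against 4.97% of all genes. Another 8 were H3K27me3 only and 1 was H3K4me3 only. The genes with both marks were mainly carriers. In the efflux carriers PIN4 and PIN7, H3K4me3 (1328 and 656 bp) lay wholly inside H3K27me3 (1833 and 1273 bp). Their fold of H3K4me3 was 2.57 and 1.76 in that order, and that of H3K27me3 was 4.66 and 2.60. PIN3, a close relative of PIN4 and PIN7, was H3K4me3 only over 1955 bp, and PIN2 and PIN6 were H3K27me3 only over 4713 and 3361 bp. The influx carrier AUX1 had 1577 bp of H3K27me3 and 1141 bp of H3K4me3 with no base in common. For auxin synthesis, TAA1 had 2738 and 520 bp and YUC6 1325 and 1077 bp of H3K27me3 and H3K4me3, and YUC1, YUC2, YUC4, YUC5, YUC8 and YUC9 were H3K27me3 only.

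In 3 of the 4 guard cell genes with both marks, H3K27me3 lay inside H3K4me3. ALMT12, an anion channel of stomatal closing also called QUAC1, had 2533 of 2659 bp under H3K4me3 at chr4:9975221-9977897 with a fold of 5.16. An H3K27me3 peak of fold 2.12 at chr4:9975446-9977417 covered 1972 bp, all within it, and this was the 4th longest common stretch among genes with a symbol. In PHOT1, a blue light receptor, 582 bp of H3K27me3 at fold 2.13 lay inside 1109 bp of H3K4me3 at fold 5.08. The NADPH oxidase gene RBOHD had 995 bp of H3K27me3 at fold 3.41, at chr5:19397366-19398360, wholly inside 1432 bp of H3K4me3 at fold 5.28. Its relative RBOHF had 1221 and 1199 bp with 1009 bp in common. In SPCH, 540 bp of H3K27me3 at fold 1.88 lay inside 1536 bp of H3K4me3 at fold 2.89.

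In the wounding and protoplasting response genes with both marks, too, H3K27me3 lay inside H3K4me3. Over the whole class both, 21.1% of genes had this arrangement. Of 9 wounding and protoplasting response genes, 3 carried both marks, 4 were H3K4me3 only and 2 were H3K27me3 only. In JAZ1, a repressor of jasmonate signalling, 1117 bp of H3K27me3 lay within 1706 bp of H3K4me3, and in AOS, an enzyme of jasmonate synthesis, 971 bp lay within 1728 bp. In WRKY40, a stress-responsive transcription factor, 887 bp lay within 1901 bp. Their H3K27me3 folds were 2.77, 3.55 and 2.29 and their H3K4me3 folds 6.39, 4.33 and 3.55. The cells had been protoplasted, and whether that moved either mark on these genes was not tested.

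The longest common stretches among genes with a symbol were 2185 bp on WRKY48, 2059 bp on the ABC transporter gene ABCG19 and 2007 bp on ELI3-2. On WRKY48 both marks were well above the weak end of their lists, with a fold of 6.21 at percentile 98.8 for H3K27me3 and of 5.52 at percentile 67.2 for H3K4me3. BIN2, a kinase that restrains brassinosteroid signalling, ranked first by the shorter of its marks among genes with a symbol whose marks shared no base, with 1485 bp of H3K27me3 and 1819 bp of H3K4me3. The nitrate reductase gene NIA1 had 1407 and 1381 bp apart. Of the 32 genes whose peaks of both marks lay in the top 25% of their lists, 17 had 0 bp in common. This was 53.1% (34.7 to 70.9), against 13.4% of all genes with both marks. A peak stands for each gene it touches, so a strong peak may lie mostly outside the gene. HB22, for example, had 251 of its 2924 bp under H3K27me3, from a peak at percentile 95.2. Among the 8 genes with symbols whose weaker peak ranked highest, CNGC8, XSP1, RGP2 and HB22 had 0 bp in common, and CAF2, EXO70B2, VCR and APE1 had 281 to 445 bp in common. Among list genes of the class both, GL2, RBOHD and OLEO4 were the 3 whose peaks of both marks were above the 50th percentile. GL2, a regulator of trichomes and root hairs, had 3330 bp of H3K27me3 and, starting 4026 bp from the end of lower coordinate, an H3K4me3 peak of fold 7.58 that ran past the other end of the gene.

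**Figure D4:**
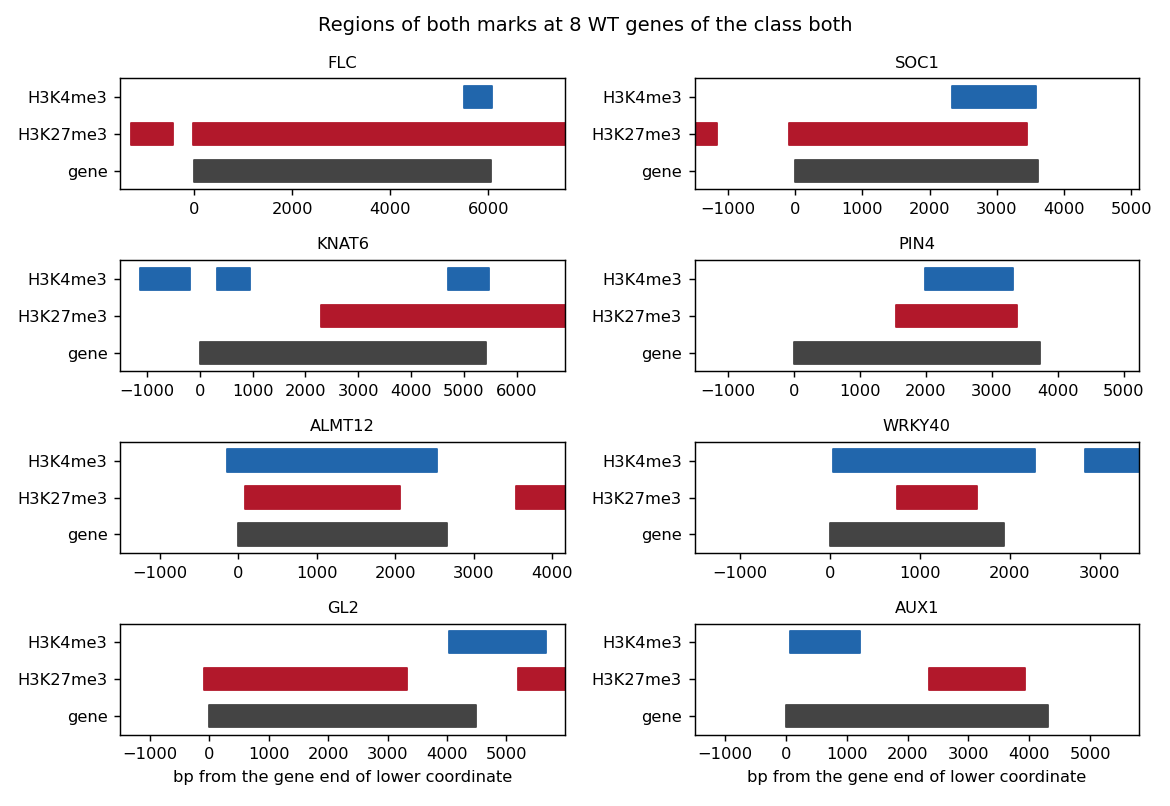
Each panel draws 1 WT gene of the class both, chosen after its values were seen, as a dark bar with the deposited regions of H3K27me3 (red) and H3K4me3 (blue) above it; the x axis is the distance in bp from the gene end of lower coordinate, extended a little beyond the gene on each side. H3K4me3 sits inside H3K27me3 in FLC and PIN4, H3K27me3 sits inside H3K4me3 in ALMT12 and WRKY40, and the regions are apart within AUX1 and GL2.

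Families of genes that share a stem of the symbol or a synonym were then counted per class. WRKY transcription factors, known for roles in defence and stress, had 12 of 72 genes in the class both, with 28 H3K27me3 only and 24 H3K4me3 only. ERF genes, of the ethylene response factor family, had 8 of 31 genes in the class both, 20 H3K4me3 only and 3 H3K27me3 only. In ERF10, ERF12, ERF11 and ERF13 the marks had 839, 1071, 662 and 715 bp in common. UGT glycosyltransferases had 11 of 64 genes and HB homeobox genes 8 of 47 in the class both. EXPA expansins had 0 of 24 in it, with 11 genes each in H3K27me3 only and H3K4me3 only. ARF auxin response factors had 0 of 22, with 14 H3K4me3 only and 8 neither. In families of this size, a count of 0 is near the share over all genes. These shares stand against 4.97% of all genes, and family members can be neighbours or near-identical copies.

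H3K27me3 without H3K4me3 took 10 of 14 WOX genes, 23 of 40 LBD genes, 71 of 131 MYB genes and 17 of 30 CLE peptide genes, against 19.5% of all genes. SWEET sugar transporters had the highest share of the families counted, with 13 of 17, and the share was 106 of 252 for CYP cytochromes P450, 15 of 47 for HB, 9 of 32 for IAA, 3 of 31 for ERF and 0 of 22 for ARF genes. H3K4me3 alone took 56 of 58 ribosomal protein genes with RPL or RPS symbols and 20 of 23 PUB ubiquitin ligase genes, against 57.3% of all genes. NAC transcription factors had 44 of 100 genes H3K27me3 only and 10 with both marks, among them NAC019 with 1552 bp in common.

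Classes were clustered along the chromosomes. The neighbour of an H3K27me3-only gene was H3K27me3 only in 42.9% of cases, against 19.5% of all genes. The neighbour of a gene with both marks also had both in 11.4% of cases, against 4.97%, and 78.6% of the genes with both marks had no neighbour of their class. Neighbours can overlap or lie under the same peak, which then counts on each of them. At least 150 bp of 2 or more genes lay under 13.5% of H3K27me3 regions and 13.9% of H3K4me3 regions. How much of the clustering this gives was not tested. The longest row of H3K27me3-only genes ran over 20 genes, from AT3G21900 to AT3G22057 on chromosome 3. Its 54.9 kb were covered to 88.7% by 5 H3K27me3 regions. The next, of 18 genes from AT3G58230 to AT3G58400, included RTM3, and the third ran over 16 genes from AT4G22400 to AT4G22517. The longest row with both marks had 6 genes, from AT3G12410 to AT3G12470, and 97.0% of its 10.8 kb carried H3K27me3, in 3 regions.

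The 5015 genes with neither mark were short, and most had no listed peak within 500 bp. No base of either mark lay in the body of 94.9% of them, and 74.2% had no peak of either mark within 500 bp. H3K4me3 lay within 500 bp of 20.2% and H3K27me3 within 500 bp of 6.56%. A total of 140 genes of the genome are shorter than 150 bp and could not be called. The longest row of the class, 100 genes from AT2G07440 to AT2G07680, lies in the part of chromosome 2 next to the centromere, which also holds a copy of mitochondrial DNA. The third longest, 26 genes from AT5G50510 to AT5G50740, holds the near-identical pair SPL13A and SPL13B. How reads from copied sequence were treated is not given in the sources used here.

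Classes of single marks were held by nearly all of their genes in FAMA-LGK, and the class both was not. Of the H3K27me3-only genes of WT, 93.2% (92.5 to 93.9) were in the same class in FAMA-LGK, and of the H3K4me3-only genes 97.2% (96.9 to 97.5). Of the 1363 genes with both marks, 942 (69.1%, 66.6 to 71.6) had both in FAMA-LGK, 220 were H3K27me3 only, 197 were H3K4me3 only and 4 were neither. On these genes the mark that was missing in FAMA-LGK had been weaker in WT than on the genes with both marks in each genotype. Genes that were H3K27me3 only there had a median WT H3K4me3 percentile of 5.36, and genes that were H3K4me3 only there a median WT H3K27me3 percentile of 19.1. Those with both in each genotype had medians of 60.9 for H3K27me3 and 16.5 for H3K4me3. By construction a weak peak is nearer to being left out of a list, so these values are a description only. The difference between genotypes cannot be tested without replicates. By name, CUC2, FUL, MYB23, RBCS2B, CRA1 and EM6 were H3K27me3 only in FAMA-LGK, and SPCH and AUX1 were H3K4me3 only there. MUTE, which was H3K27me3 only in WT, had 1640 bp of H3K27me3 and 1312 bp of H3K4me3 in FAMA-LGK.

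**Figure D5:**
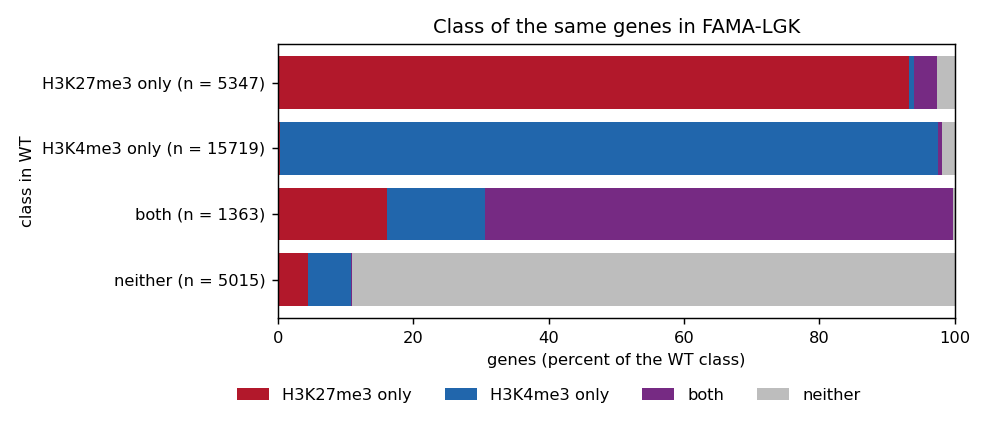
Each bar holds the genes of 1 WT class, with their number in brackets, and its colours give the percent of them in each class by the FAMA-LGK lists. The same class holds 93.2%, 97.2%, 69.1% and 89.1% of the genes from top to bottom, and the class both loses 16.1% to H3K27me3 only and 14.5% to H3K4me3 only.

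Few genes lay near the limit of 150 bp. H3K27me3 covered 150 to 199 bp of 34 genes and 100 to 149 bp of 41 genes, and H3K4me3 covered 150 to 199 bp of 76 genes and 100 to 149 bp of 93 genes. Just inside for H3K27me3 were DVL21 (162 bp), RTFL22 and GIL1 (165 bp each) and EMB2761 (168 bp), and just outside were CRK30 (138 bp), MAC5C (136 bp), SDG20 (125 bp) and ERH3 (123 bp). Just inside for H3K4me3 were COPT4 and TDF1 (152 bp each), URED (156 bp) and GLR2.1 (157 bp), and just outside were EEL and RTM2 (149 bp each), CDEF1 (148 bp) and NEK4 (145 bp).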

How the data were processed

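Guard cells were sorted from protoplasts of aerial seedling tissue, per the labels, and profiled by ChIP-seq. Per the submitters' processing notes, the build was TAIR10 and the tools were Bowtie2, MACS2 and CASAVA 1.8.2, with no role or setting stated. Not given in the sources used here are the peak threshold, how replicates were combined, the total reads and the treatment of reads that match several places. Each deposited peak has a score, which was not used, a fold (a ratio of ChIP to control), a −log10 p-value, which was not used, and a −log10 q-value. These are the authors' own values and were used only to describe, rank or filter peaks within 1 list. Peak numbers in the names reach 9094 (H3K27me3) and 16553 (H3K4me3) in WT, so some peaks that were numbered are not in the lists used here.

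Touching peaks were merged, which left the counts as deposited, and the bases covered in each gene body were counted with Python 3.11.15, numpy 2.4.6 and pandas 2.3.3. Intervals are from scipy 1.17.1. The count of bases was tested on simulated data. Gene positions came from RefSeq's table for TAIR10.1, which gives no strand. Of the WT H3K4me3 summits, 96.3% lay in its protein-coding genes, against 82.1% after a shift of 300 bp either way. Percentiles rank the −log10 q within a list, and the strongest peak touching a gene stands for it. Depth is unknown, as no counts were used.

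The members, the 13 lists with 240 genes and the named genes were chosen with earlier results of these data known. Named genes were those of the lists, the 8 with the most covered bases in each single-mark class, the 8 with the longest common stretch, the 8 with the longest marks apart, the 8 strongest in both lists, the 3 longest rows of neighbours and the 4 nearest to the limit on each side. Family members with both marks (ERF10 to ERF13, NAC019) and the genes drawn as maps were chosen after their values were seen, as was the measure of length above the 90th percentile. Alternatives changed the minimum covered, the peak threshold, the gene interval, the genes used, the merging of gaps and the overlap counted. Some members are not reported here. A search of promoters for motifs was planned and was not run.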

Additional observations from a re-analysis of the deposited data

How the results depend on the processing

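Under every alternative run, H3K27me3 genes had H3K4me3 less often than other genes. The sizes moved. Requiring 50% of the gene body gave 6230 H3K4me3-only, 439 both and 15584 neither genes, with shares of 7.80% against 28.6%, and 66, 5 and 84 genes of the lists in these classes. Keeping the 50% of peaks highest in −log10 q gave 9297, 109 and 13665 genes, shares of 2.43% against 40.5%, and 74, 3 and 75 list genes. It left 3.47% of H3K27me3 regions and 0.503% of their bases overlapped. Adding 500 bp on each side gave 2899 genes with both marks and shares of 36.6% against 79.3%. Requiring a summit in the body gave 7927 neither genes, 28 of them in the lists, and 64.4% of the genes without H3K27me3 had H3K4me3. Requiring 1 bp gave shares of 22.5% against 76.9%, and 300 bp gave 74.8% for the genes without H3K27me3. Genes that overlap no other gene gave 19.1% against 73.6%. The bases overlapped were 5.11% with a −log10 q of at least 5 and 5.11% with gaps of up to 500 bp merged. The regions overlapped were 20.98% with gaps merged, 16.2% when 150 bp of overlap was required and 8.64% when 50% of the region was. For the single lists, 388 of 468 counts stayed within 1.5 times and 80 did not. Apart from fewer bases or peaks passing by construction, the cause was not tested. No paired analysis was possible because each list is 1 set of peaks for its replicates together, and for the same reason no replicate could be left out. Unknown depth limits every call of an absent mark.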

Other observations

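Genes that encode no protein were also covered, where they overlap no protein-coding gene. Of 2059 long non-coding RNA genes (lncRNA), with a median length of 314 bp, 29.4% were H3K27me3 only, 5.83% H3K4me3 only and 64.1% neither. Of 114 miRNA genes of at least 150 bp, 38 (33.3%) were H3K27me3 only, 10 were H3K4me3 only and 2 carried both. Pseudogenes that the table lists as transcribed had H3K27me3 only in 232 of 838 cases (27.7%), and the other pseudogenes in 158 of 3842 (4.11%), of which 93.4% carried neither mark. In all of these kinds the class both held at most 2.27% of the genes, against 4.97% of protein-coding genes. The minimum of 150 bp was the same although the RNA genes are shorter.

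Over 112 windows of 1 Mb with at least 50 protein-coding genes, the share of genes with both marks ran from 0 to 11.2%, and that of H3K27me3 only from 0 to 37.8%. The share with neither mark ran from 3.76% to 96.7%, and the highest value lay on chromosome 2.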
